A study of Caenorhabditis elegans with 6 samples.

Results

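The antimicrobial effector genes of Caenorhabditis elegans taken up here are the saposin-like (spp), antibacterial factor (abf), caenacin (cnc), fungus-induced (fip and fipr), infection response (irg) and thaumatin-like (thn) genes, together with the neuropeptide-like genes nlp-24, nlp-25 and nlp-27 to nlp-34. They were taken by gene name, without lysozymes, but the families were chosen with earlier results of these data known. There were 101 such genes among the 22416 genes with counts. Of these, 67 had enough reads to be tested with 15519 genes in all.

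RNA came from pools of whole worms of strain CL2006. All worms carried pCL12, a minigene of human amyloid beta peptide 1-42 under the promoter of the muscle myosin gene unc-54, and the plasmid pRF4, which carries a collagen marker that makes worms roll. The control group was fed HT115 bacteria with an empty vector (EV). The other group was fed HT115 bacteria expressing RNAi against the 3' untranslated end of gtr-1, a receptor gene of the nervous system. Both diets were given over 2 generations at 20 °C, and the second generation was collected on day 6 of adulthood. There were 3 libraries per group, with 1 of each group in each of batches 2, 3 and 4. The labels do not say whether the batches were separate cultures, so the spread that p-values measure here may be technical. The minigene acts in body wall muscle, whereas the genes described here are known mainly from intestine, pharynx and epidermis. In pools of whole worms, fewer cells of a type and less RNA per cell cannot be told apart.

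Worms have no mobile immune cells, and their epithelia secrete small antimicrobial proteins instead. The intestine and pharynx meet swallowed bacteria and make saposin-like proteins, some of which (caenopores) open pores in bacterial membranes, as well as defensin-like ABF peptides and thaumatin-like proteins. The epidermis meets fungi and wounds and makes short secreted peptides of the NLP, caenacin and FIP groups. The p38 MAP kinase pathway controls many of these genes in both tissues, and the TGF-beta ligand DBL-1 controls cnc-2 in the epidermis.

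Total counts ran from 43067539 to 59812227 per library. The batch 2 libraries stood apart. Within a group, the chi-square per degree of freedom over genes was 83.5 to 133 for batch 2 against batch 3 or 4, and 22.5 (empty vector) and 26.001 (gtr-1 label) for batch 3 against batch 4. The RNAi target was not lower in the libraries labelled gtr-1 RNAi, with gtr-1 counts of 32, 16 and 12 with the empty vector and 38, 26 and 11 under the label (log2 fold change 0.13 ± 0.30, SE). Every direction below therefore rests on the label. Levels are given in CPM, read counts scaled to a common library size after adjustment by trimmed means (TMM), and log2 fold changes are those of the libraries labelled gtr-1 RNAi over the empty vector.

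The effectors differed by orders of magnitude in level, and saposin-like genes led. To compare genes with each other, levels were divided by exon length (CPM per kilobase, mean over the 6 libraries). spp-14, a saposin-like gene, stood highest at 806 CPM per kilobase, above 99.2% of the genes tested. spp-5, a caenopore with known activity against Escherichia coli membranes, came next at 722. The ranges of spp-14 and spp-5 overlapped with the empty vector, at 579.7 to 739.7 and 600.1 to 718 CPM per kilobase, so their order there was not beyond the spread. After them came the saposin-like spp-17 at 270.0, spp-3, another saposin-like gene, at 213, and thn-2, a thaumatin-like gene, at 167 CPM per kilobase. The highest level per length in each further family was 106 for nlp-27, 102 for irg-7, 52.7 for fipr-21, 42.8 for cnc-2 and 25.6 for abf-2. The tested members had a median level of 10.03 CPM per kilobase, against 6.83 for all genes tested, and 35 of the 67 lay above the latter.

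**Figure D1:**
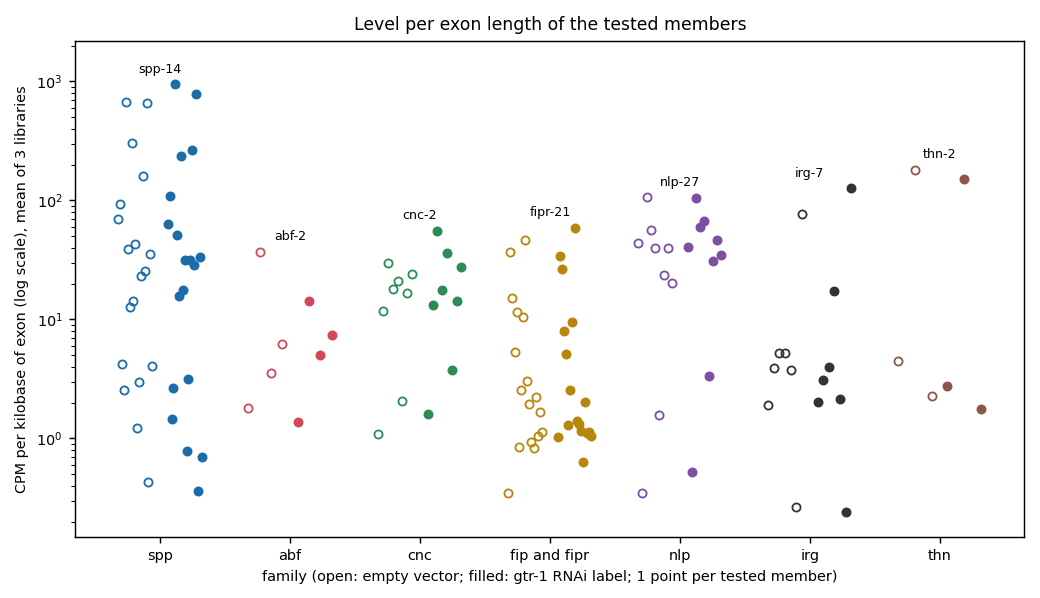
Level of each tested member in CPM per kilobase of exon on a log axis, by family, with 1 point per gene for the mean of the 3 empty vector libraries (open) and of the 3 libraries labelled gtr-1 RNAi (filled). The saposin-like genes spp-14 and spp-5 stand highest, and within each family levels spread over a factor of 10 or more.

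The other 34 members had too few reads to be tested. In 6 of them, abf-3, fipr-12, fipr-14, fipr-25, fipr-27 and thn-7, no library held a read, which at 3 counts allows a level of up to 0.0536 to 0.0729 CPM per library, for counting error only. Another 16 had 10 reads or fewer in all 6 libraries together. Of the 12 above that, the 4 with the most reads were fipr-7, fipr-6, fipr-8 and fipr-11, small fungus-induced-related genes whose reads lay mostly in batch 2 in both groups. fipr-7, for example, had 61, 0 and 1 reads with the empty vector and 28, 5 and 0 under the label in batches 2, 3 and 4. By family, 19 of 36 fip and fipr genes, 5 of 8 thn, 4 of 23 spp, 3 of 11 cnc, 2 of 6 abf and 1 of 10 nlp genes were not tested, while all 7 irg genes were.

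The main comparison set the 2 diets against each other. irg-4, irg-7, spp-3 and spp-14 were higher and abf-2 was lower in every library of the labelled group than in any of the controls. None of the 67 members passed the edgeR quasi-likelihood test at an adjusted p under 0.05, in a table where 0.0902% of all genes tested were called higher and 0% lower. Before adjustment, at p under 0.05, 17 members were higher (25.4% of the 67) and 8 lower (11.9%), against 4.99% and 5.68% of all genes tested. DESeq2 on the same genes called 7 members higher (irg-4, irg-7, spp-3, spp-14, spp-10, fip-5 and nlp-29) and 2 lower (abf-2 and fipr-1), where it called 1.57% of all genes higher and 0.619% lower. The groups did not overlap in 12 members that were higher and 5 that were lower, or 17.9% and 7.46% of the members against 2.92% and 3.07% of all genes. Among the 12, fip-1 passed the filter on low counts only through the labelled group, where it was high. Without the batch 2 pair, edgeR called 13 members higher and 7 lower, where 4.92% and 2.77% of all 15147 genes tested were called. The higher ones were irg-4, irg-7, spp-3, spp-5, spp-8, spp-10, spp-14, spp-18, cnc-2, nlp-24, nlp-29, nlp-30 and nlp-31, and the lower ones abf-2, fipr-1, fipr-22, irg-5, spp-9, spp-12 and spp-17. Without the batch 3 pair it called 6 and 2 (1.05% and 0.501% of all genes), and without the batch 4 pair 0 and 0 (0% of all genes both ways), with edgeR throughout. The calls also depended on the scaling, although the log2 fold changes hardly moved (spp-3 was at 0.74 under both scalings). With DESeq2's size factors in edgeR, irg-4, irg-7, spp-3 and spp-14 passed as higher and abf-2 as lower, where 0.851% and 0.445% of all genes did. With no filter on low counts the same 4 passed as higher and no member as lower, beside 0.582% and 0.199% of all genes, and without batch in the model none passed either way, beside 0.00644% and 0%.

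Over the 67 members, the median log2 fold change was 0.14, with 44 above 0 and 23 below, against -0.03 for all genes, of which 41.6% were above 0 and 58.4% below. All 3 pairs agreed in sign for 22 members that were higher and 13 that were lower, against 13.5% and 22.6% of all genes. It was 0.15, 0.22 and 0.16 in the pairs of batches 2, 3 and 4. By family the medians ran from 0.41 for the 9 nlp genes and 0.33 for the 8 cnc genes, through 0.15 for the 19 spp, 0.12 for the 17 fip and fipr and 0.05 for the 7 irg genes, to -0.07 for the 4 abf and -0.41 for the 3 thn genes. The nlp median was above 0 in every pair (0.30, 0.35 and 0.52) and the thn median below 0 in every pair (-0.24, -0.46 and -0.04). The cnc median was also above 0 in every pair, but at 0.63 in batch 2 against 0.05 and 0.12 in batches 3 and 4. The fip and fipr median changed sign between pairs, at -0.20, 0.39 and -0.04, and so did that of irg, at 0.15, -0.36 and 0.16, that of spp, at -0.06, 0.28 and 0.20, and that of abf, at 0.31, -0.03 and -0.46. The families hold few genes, and no test was made of their medians.

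**Figure D2:**
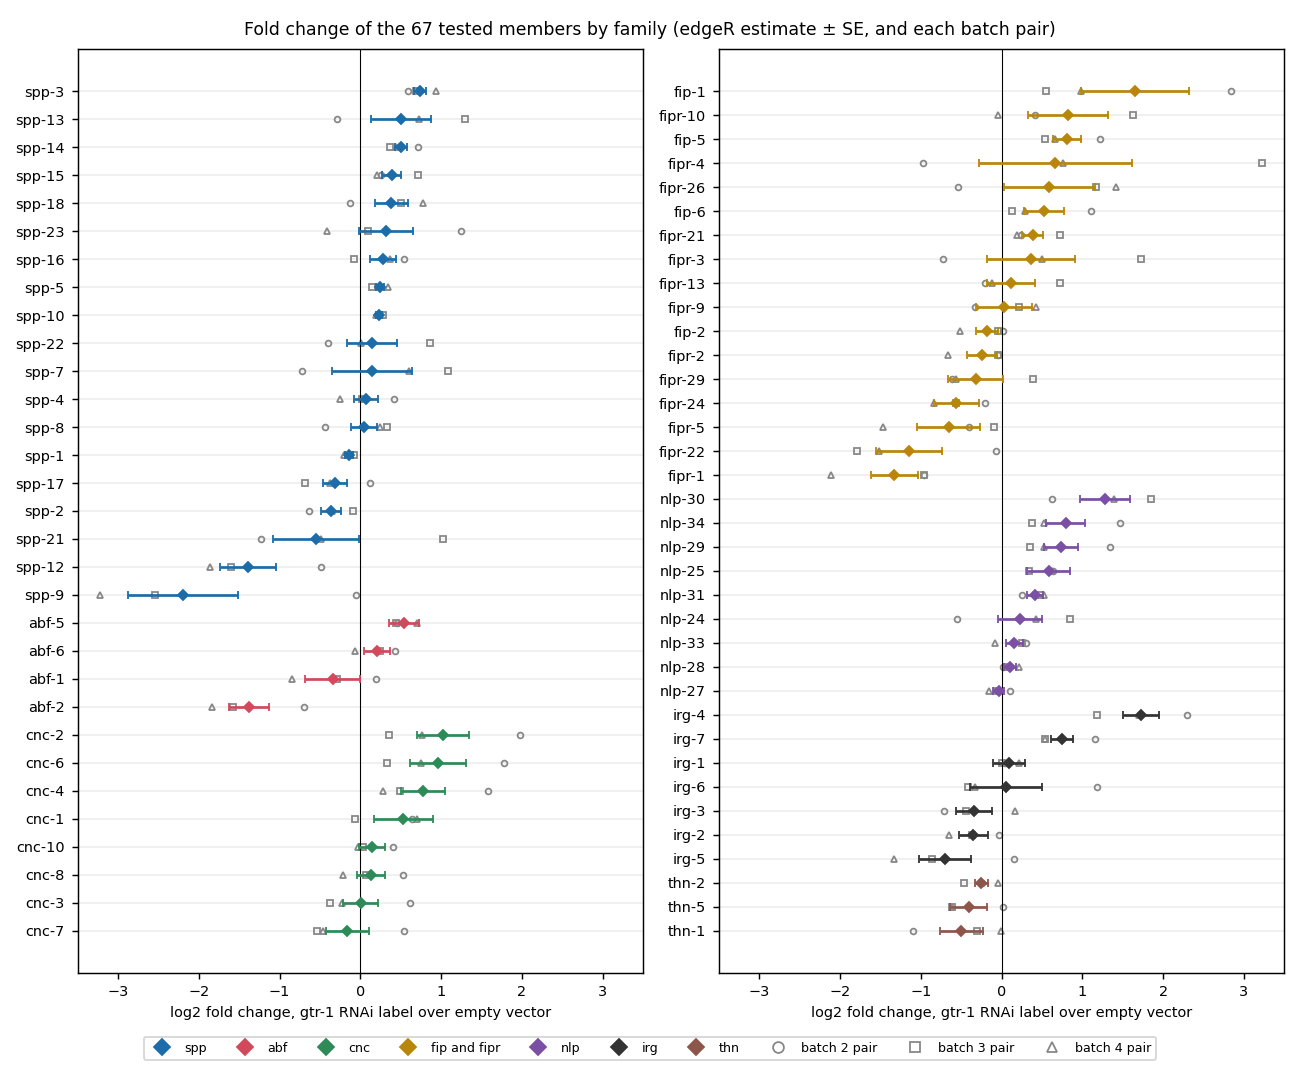
Log2 fold change of each of the 67 tested members, libraries labelled gtr-1 RNAi over empty vector, by family and in order of size: diamonds with bars are the edgeR estimate ± SE, and open symbols are the differences in log2 CPM within each batch pair. irg-4 lies highest at 1.73 and spp-9 lowest at -2.20, and the batch 2 pair often lies apart from the others.

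Among the saposin-like genes, the abundant spp-3, spp-14, spp-5 and spp-10 were higher under the label, and the scarce spp-9 and spp-12 were lower. Of the 19 tested, 13 lay above 0 and 6 below. Before adjustment, at p under 0.05, 5 were higher (26.3%) and 4 lower (21.1%), against 4.99% and 5.68% of all genes tested. spp-3 (WBGene00004988, chromosome X, 7314969 to 7315353 in WBcel235) read 65.4, 54.7 and 44.9 CPM with the empty vector and 98.7, 88.1 and 85.6 CPM under the label in batches 2, 3 and 4. All 3 labelled libraries lay above all 3 controls. The log2 fold change of spp-3 was 0.74 ± 0.07 (SE), or 1.67-fold, and the 95% interval ran from 0.55 to 0.92 (edgeR adjusted p = 0.0745, DESeq2 adjusted p = 6.84e-09). Without the batch 2 pair it was 0.81 (edgeR adjusted p = 0.000837). With all 3 pairs in the fit, spp-3 had the smallest edgeR p of any member.

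spp-14 (WBGene00004999, chromosome X, 7725979 to 7726383) read 206, 263 and 245 CPM with the empty vector and 338.4, 338.5 and 331 CPM under the label. The labelled libraries lay close together, at 336 ± 4.21 CPM, and above the controls, at 238 ± 29.04 CPM (SD, n = 3 each). Its log2 fold change was 0.50 ± 0.07 (SE), or 1.42-fold (edgeR adjusted p = 0.111, DESeq2 adjusted p = 4.37e-07). spp-5, the caenopore, differed less, with 248, 266 and 222 CPM against 290.5, 294 and 282 CPM and no overlap of the groups (log2 fold change 0.24 ± 0.05, SE, edgeR adjusted p = 0.199). spp-10, which resembles the lysosomal prosaposins of mammals, read 141.8 ± 15.05 CPM with the empty vector and 167 ± 21.2 CPM under the label (SD, n = 3 each). The groups of spp-10 overlapped, but the difference was alike in the 3 pairs, at 0.22, 0.28 and 0.20 on the log2 scale (edgeR adjusted p = 0.118, DESeq2 adjusted p = 0.0292). spp-15 was also higher in each pair, at 0.39 ± 0.12 (log2 fold change ± SE, edgeR adjusted p = 0.376), and its exons overlap C48E7.6 on the other strand.

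The abundant spp-17 did not share this direction. It stood at -0.31 ± 0.15 (log2 fold change ± SE, edgeR adjusted p = 0.527), with 0.12, -0.69 and -0.37 in the pairs. It was called lower without the batch 2 pair, at -0.53 (edgeR adjusted p = 0.00599). spp-1, a caenopore with known antibacterial activity, had -0.14 ± 0.05 (log2 fold change ± SE, edgeR adjusted p = 0.459). Its exons overlap T07C4.3 on the other strand, and the sources used here do not say whether reads were counted by strand. The scarce saposin-like genes spp-9 and spp-12 were lower under the label. spp-9 (chromosome X, 11487784 to 11488203) read 0.291, 1.75 and 2.48 CPM with the empty vector and 0.279, 0.268 and 0.231 CPM under the label, from 16, 72 and 118 reads against 15, 15 and 12. The batch 2 control was as low as the labelled libraries, so the difference came from batches 3 and 4. Its log2 fold change was -2.20 ± 0.68 (SE, edgeR adjusted p = 0.381), and without the batch 2 pair it was -3.05 (edgeR adjusted p = 0.00173). spp-12 had the same shape, with 0.874, 2.09 and 2.90 CPM against 0.613, 0.661 and 0.770 CPM (log2 fold change -1.39 ± 0.34, SE, edgeR adjusted p = 0.296), and its value was -1.79 without the batch 2 pair (edgeR adjusted p = 0.00556).

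The antibacterial factors, small peptides with the cysteine pattern of nematode defensins, held 1 of the 2 members that DESeq2 called lower. abf-2 (WBGene00000013, chromosome I, 3885631 to 3885888), which encodes an antimicrobial peptide of the pharynx, read 7.44, 10.65 and 10.56 CPM with the empty vector and 4.57, 3.54 and 2.93 CPM under the label. Every labelled library was below every control. The level of abf-2 was 2.60-fold lower, at -1.38 ± 0.25 on the log2 scale (SE), and the 95% interval ran from -2.02 to -0.74 (edgeR adjusted p = 0.167, DESeq2 adjusted p = 3.18e-05). Its value was -1.72 without the batch 2 pair (edgeR adjusted p = 0.000995) and -1.15 without that of batch 4 (edgeR adjusted p = 0.749). abf-1, which lies 181 bases away on the same strand, was scarce at 1.59 CPM per kilobase and had a log2 fold change of -0.34 ± 0.34 (SE). On the X chromosome abf-5 and abf-6, neighbours of each other, pointed up at 0.53 ± 0.19 and 0.21 ± 0.16 (log2 fold change ± SE, edgeR adjusted p = 0.426 and 0.663). The 4 tested abf genes thus lay on both sides of 0.

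The pharynx genes used as markers did not lie on 1 side of 0. Of 7 pharynx genes used as markers (myo-1, myo-2, tnc-2, tni-4, ceh-22, pha-4 and marg-1), none was at 0 in the libraries, 5 lay above 0 in log2 fold change and 2 below, and their median was 0.21. Their summed level was 82.9 to 317 CPM with the empty vector and 101 to 266 CPM under the label, highest in batch 2 in both groups. The pharynx median was -0.35, 0.67 and 0.42 in the pairs of batches 2, 3 and 4. Of the 7, 6 lay below 0 in batch 2, and 6 and 5 lay above 0 in batches 3 and 4. abf-2 was below 0 in each pair, at -0.70, -1.58 and -1.84 on the log2 scale. The part of the pharynx markers in the result was not tested.

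The epidermal peptides of the NLP group mostly lay above 0. Of the 9 tested, 8 were above 0, and 6 were higher in all 3 pairs, where 13.5% of all genes were. Before adjustment, at p under 0.05, 4 were higher (44.4%), against 4.99% of all genes tested. nlp-29 (WBGene00003767, chromosome V, 3984425 to 3984847), the best known of the genes that fungal infection and wounding induce, read 11.6, 17.3 and 13.8 CPM with the empty vector and 29.4, 21.98 and 19.8 CPM under the label. The groups did not overlap, although the highest control lay within 3 CPM of the lowest labelled library. Its log2 fold change was 0.74 ± 0.21 (SE), or 1.67-fold (edgeR adjusted p = 0.338, DESeq2 adjusted p = 0.0140), and it was 1.34, 0.35 and 0.52 in the pairs of batches 2, 3 and 4. Leaving out the batch 2 pair brought it to 0.43 (edgeR adjusted p = 0.0341).

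nlp-34, a near neighbour of nlp-29 on the other strand, read 4.33, 6.73 and 4.84 CPM against 12.06, 8.79 and 6.95 CPM (log2 fold change 0.79 ± 0.25, SE, edgeR adjusted p = 0.379). The groups of nlp-34 were apart, again by most in batch 2. nlp-31, whose peptide has known activity against fungi and bacteria, had a smaller but steadier difference of 0.41 ± 0.10, with 0.25, 0.47 and 0.52 in the pairs (log2 fold change ± SE, edgeR adjusted p = 0.297). nlp-30 read 2.24, 0.559 and 0.568 CPM with the empty vector and 3.47, 2.11 and 1.56 CPM under the label. Each labelled library of nlp-30 lay above the control of its batch, but the batch 2 control lay above the labelled libraries of batches 3 and 4 (log2 fold change 1.28 ± 0.31, SE, edgeR adjusted p = 0.288). nlp-30 was called higher without the batch 2 pair, at 1.68 (edgeR adjusted p = 0.0115). The most abundant genes of the group did not share the size of these differences. nlp-27 was at -0.04 ± 0.07 with a 95% interval from -0.21 to 0.14, and nlp-28 at 0.11 ± 0.08 with an interval from -0.09 to 0.31 (log2 fold change ± SE). nlp-25, the least abundant, was at 0.58 ± 0.26 (SE, edgeR adjusted p = 0.509).

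Of the caenacins, glycine-rich epidermal peptides, 7 of 8 tested lay above 0, where 41.6% of all genes did. Among the 7, cnc-3 was at 0.00 ± 0.22 (log2 fold change ± SE). By pair, 8, 5 and 4 of the 8 lay above 0 in batches 2, 3 and 4. Of the 8, 3 were higher before adjustment at p under 0.05 (37.5%), against 4.99% of all genes tested. cnc-2 (WBGene00000556, chromosome V, 1449665 to 1450183), the caenacin most studied as a target of DBL-1, read 5.50, 15.2 and 10.8 CPM with the empty vector and 21.7, 19.4 and 18.3 CPM under the label. The controls spread more widely than the labelled libraries, at 10.5 ± 4.84 against 19.8 ± 1.71 CPM (n = 3 each), and the groups did not overlap. Its log2 fold change was 1.02 ± 0.32 (SE, edgeR adjusted p = 0.387), and it was 1.97 in the batch 2 pair but 0.36 and 0.76 in the others. Without the batch 2 pair the estimate was 0.56 (edgeR adjusted p = 0.0345). cnc-4 read 6.57, 11.04 and 9.82 CPM against 19.7, 15.5 and 11.9 CPM, also without overlap. It had 1.57, 0.49 and 0.28 in the pairs (log2 fold change 0.78 ± 0.27, SE, edgeR adjusted p = 0.423). cnc-6, on chromosome III and scarce, was at 0.96 ± 0.35 (SE, edgeR adjusted p = 0.441). The other caenacins named by level or p, cnc-8, cnc-10 and cnc-1, had log2 fold changes of 0.13, 0.14 and 0.53 with edgeR adjusted p of 0.793, 0.765 and 0.627.

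The fungus-induced genes pointed both ways. Of 17 tested, 10 lay above 0 and 7 below. Before adjustment, 2 genes in each direction had p under 0.05 (11.8%), against 4.99% higher and 5.68% lower among all genes tested. fip-5 (WBGene00009620, chromosome X, 10302741 to 10303143) read 3.97, 5.47 and 4.08 CPM with the empty vector and 9.25, 7.97 and 6.47 CPM under the label. Its groups did not overlap (log2 fold change 0.81 ± 0.18, SE, edgeR adjusted p = 0.237, DESeq2 adjusted p = 0.0287). fipr-1 (WBGene00009096, chromosome V, 12361301 to 12361744) went the other way, with 6.95, 3.52 and 2.97 CPM against 3.55, 1.79 and 0.655 CPM. Its groups overlapped, with both libraries of batch 2 the highest of their group, yet each labelled library was below the control of its batch, with pair differences of -0.963, -0.965 and -2.11 on the log2 scale (log2 fold change -1.33 ± 0.29, SE, edgeR adjusted p = 0.237, DESeq2 adjusted p = 0.00704).

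fipr-21, the most abundant of the family, was at 0.38 ± 0.13 (log2 fold change ± SE, edgeR adjusted p = 0.411) and was higher in each pair. fip-2, second in level and with exons overlapped by T27E4.5 on the other strand, was at -0.18 ± 0.14 (edgeR adjusted p = 0.661). fipr-22 was lower without overlap, at 1.58, 2.62 and 2.34 CPM against 1.51, 0.733 and 0.790 CPM, with almost no difference in batch 2 (log2 fold change -1.15 ± 0.40, SE, edgeR adjusted p = 0.427), and it was called lower without the batch 2 pair, at -1.70 (edgeR adjusted p = 0.00666). fip-1 was higher without overlap, at 1.65 ± 0.67 (log2 fold change ± SE, edgeR adjusted p = 0.479), but rested on 1, 7 and 6 reads with the empty vector against 20, 15 and 15. Members of these families resemble each other, and how the counting treated reads that match more than 1 of them was not tested.

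**Figure D3:**
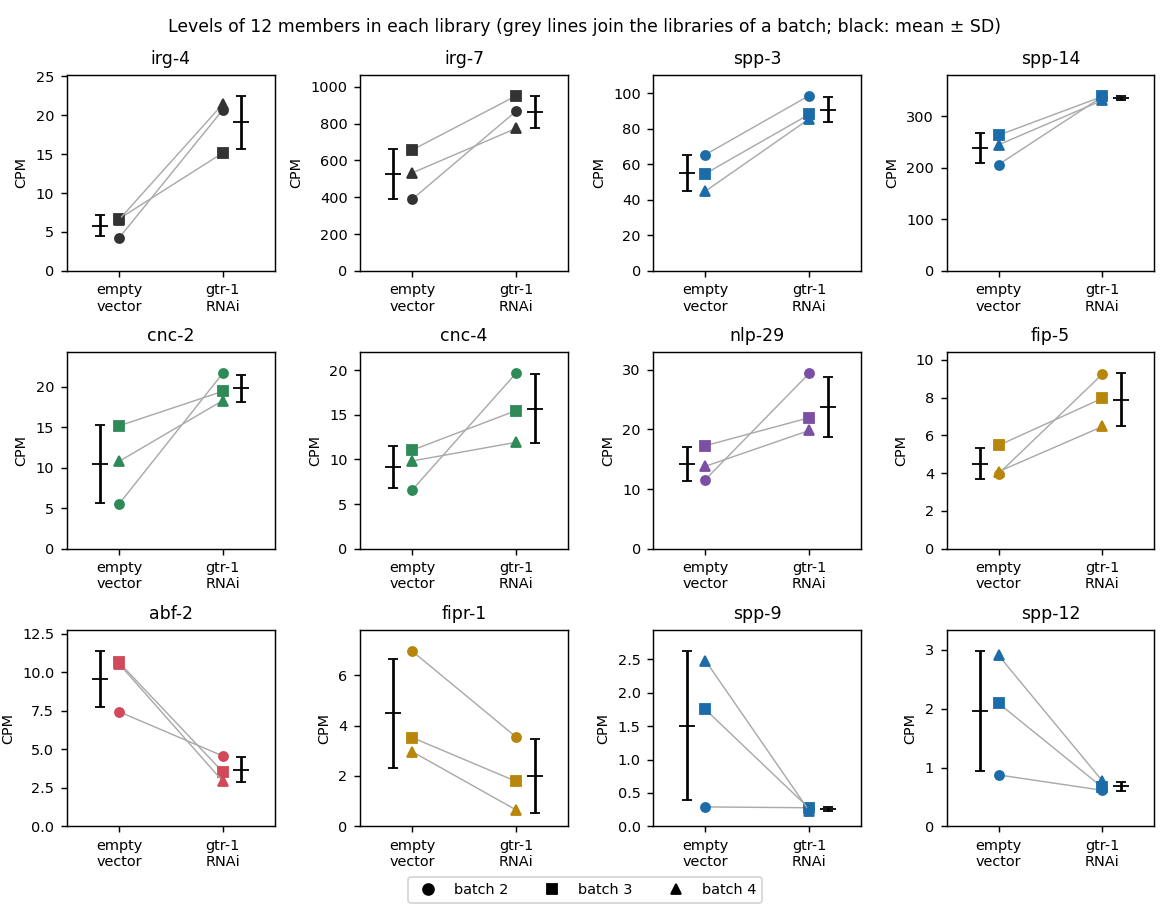
CPM of 12 members in each library, with 1 panel per gene, a symbol per batch, grey lines joining the libraries of a batch and black bars for the mean ± SD of 3 libraries. irg-4, irg-7, spp-3, spp-14, cnc-2, cnc-4, nlp-29 and fip-5 stand higher under the gtr-1 RNAi label in every pair, and abf-2, fipr-1, spp-9 and spp-12 lower, with spp-9 nearly level in batch 2.

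The infection response genes share only a name given for their induction by pathogens, and they differed among themselves. irg-4 (WBGene00008584, chromosome IV, 12435833 to 12438236) encodes a CUB-like domain protein and is widely used as a readout of the p38 pathway in the intestine. It read 4.20, 6.68 and 6.56 CPM with the empty vector and 20.7, 15.2 and 21.5 CPM under the label. The lowest labelled library was more than 2-fold above the highest control. The fold change of irg-4 was 3.31, or 1.73 ± 0.23 on the log2 scale (SE), and the 95% interval ran from 1.15 to 2.30 (edgeR adjusted p = 0.0894, DESeq2 adjusted p = 1.963e-11). It was 2.29, 1.18 and 1.70 in the pairs. Without the batch 2 or the batch 3 pair it was 1.45 and 2.00 (edgeR adjusted p = 0.00159 and 2.476e-05), and without that of batch 4 it was 1.74 (edgeR adjusted p = 0.537).

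irg-7 (WBGene00018237, chromosome X, 3235754 to 3243636), which encodes a large secreted protein of 2217 residues made in the intestine, had the most reads of any member. It read 389, 657 and 532 CPM with the empty vector and 868, 951 and 774 CPM under the label, without overlap. Its log2 fold change was 0.74 ± 0.14 (SE, edgeR adjusted p = 0.167, DESeq2 adjusted p = 0.00634), with 1.16, 0.53 and 0.54 in the pairs. irg-5, another CUB-like gene and p38 readout, did not go with irg-4. It read 1.80, 5.86 and 4.94 CPM against 2.006, 3.22 and 1.95 CPM (log2 fold change -0.70 ± 0.32, SE, edgeR adjusted p = 0.509). The batch 2 control lay below every labelled library. The pair differences of irg-5 were 0.15, -0.86 and -1.33 on the log2 scale in batches 2, 3 and 4. irg-5 was called lower without the batch 2 pair, at -1.09 (edgeR adjusted p = 0.0146). irg-1 and irg-2, known to be induced through the transcription factor ZIP-2, had log2 fold changes of 0.09 ± 0.20 and -0.35 ± 0.18, and irg-3 was at -0.34 ± 0.22 (SE, edgeR adjusted p = 0.878, 0.551 and 0.619). irg-6, read at 0.109 to 0.656 CPM, was at 0.05 ± 0.44 (log2 fold change ± SE) and turned to -0.40 without the batch 2 pair.

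All 3 thaumatin-like genes tested lay below 0. thn-2 (WBGene00009215, chromosome IV, 12383170 to 12383974), the only abundant one, read 161, 121.997 and 127 CPM with the empty vector and 136, 88.4 and 123 CPM under the label. The groups overlapped, and the difference in batch 4 was close to 0 (log2 fold change -0.25 ± 0.08, SE, edgeR adjusted p = 0.407). thn-1 and thn-5 were scarcer and were at -0.50 ± 0.27 and -0.41 ± 0.23 (log2 fold change ± SE, edgeR adjusted p = 0.561 and 0.575). The exons of thn-5 overlap Y59E9AL.37 on the other strand.

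Many effectors lie next to each other, and neighbours did not always point the same way. Of the 101 members, 64 fell into 21 groups in which each lies within 20000 bases of the next, and 20 of these groups hold a single family. In 14 groups 2 or more members were tested, and in 4 of them the members lay on both sides of 0. The clearest contrast, chosen after the values were seen, was on the X chromosome between 7314969 and 7320354, where spp-3, spp-2, spp-6, spp-4 and spp-5 follow each other. spp-3 was at 0.74 ± 0.07 and spp-2, 641 bases further on the same strand, at -0.36 ± 0.12 (log2 fold change ± SE), with spp-2 lower in all 3 pairs. spp-4 was at 0.07 ± 0.15 and spp-5 at 0.24 ± 0.05. In the nlp group on chromosome V, from 3978825 to 3989770, the 4 members nlp-34, nlp-31, nlp-30 and nlp-29 lay between 0.41 and 1.28, while nlp-28 and nlp-27 at the other end lay at 0.11 and -0.04. In the caenacin group on the same chromosome, cnc-3 at 0.00 ± 0.22 (SE) sits between cnc-4 at 0.78 and cnc-2 at 1.02. fip-5, fipr-21 and cnc-8 form the only group with 2 families, and they lay at 0.81, 0.38 and 0.13.

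**Figure D4:**
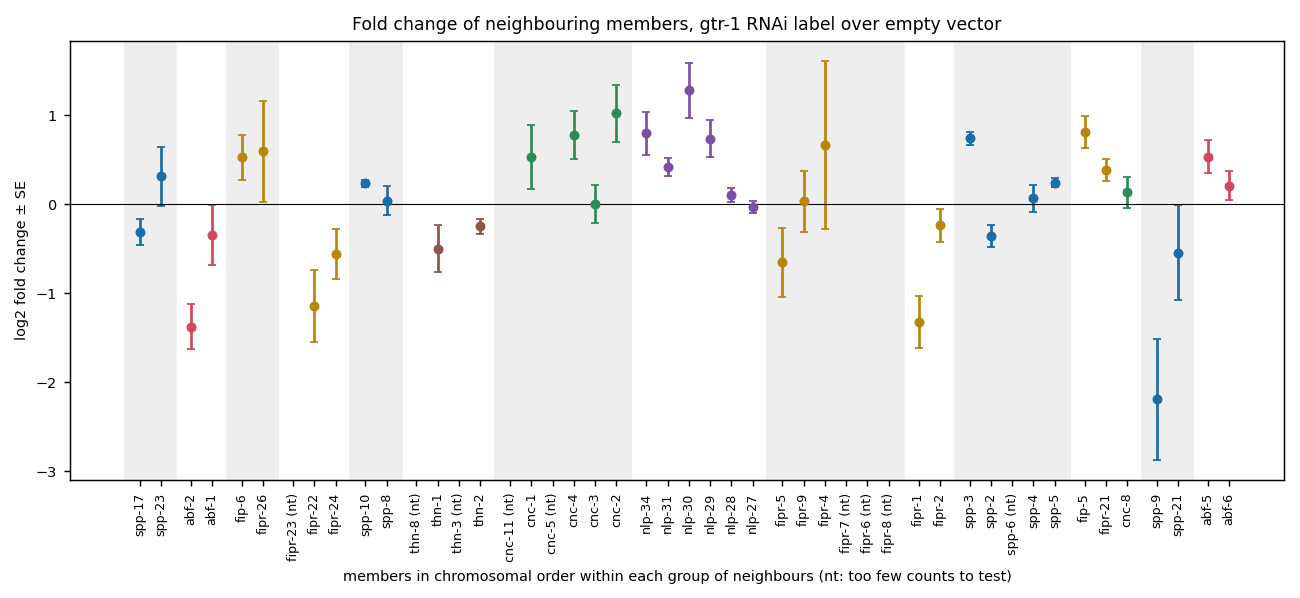
Log2 fold change ± SE of members that neighbour each other, in chromosomal order within each group of neighbours (alternate shading), for the 14 groups with 2 or more tested members, coloured by family as in the other plots. spp-3 and spp-2 lie on opposite sides of 0, and the nlp group on chromosome V spans 1.28 (nlp-30) to -0.04 (nlp-27).

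Levels of many effectors differed between batches, those of the fungus-induced genes among them. With the empty vector, 22 of the 67 members were over 2-fold higher in batch 2 than in the mean of batches 3 and 4 on the log scale, against 18% of all genes. Among the libraries labelled gtr-1 RNAi there were 15, against 13.5% of all genes, and 13 were so in both groups, against 9.42%. Of the 17 fip and fipr genes, 8 were over 2-fold higher in both groups. fipr-2, named after its values were seen, read 8.77, 3.94 and 2.104 CPM with the empty vector and 8.49, 3.81 and 1.31 CPM under the label, lowest in batch 4 in both groups. nlp-24, chosen likewise, read 36.7, 7.24 and 6.12 CPM against 24.98, 13.1 and 8.22 CPM, so that it was lower under the label in batch 2 and higher in batches 3 and 4. Without the batch 2 pair its log2 fold change was 0.65 (edgeR adjusted p = 0.0399), against 0.23 with it (edgeR adjusted p = 0.776). With 1 library per group and batch, this difference between batches was not tested. The exons of nlp-24 overlap those of glb-15 on the other strand. The summed level of 9 epidermis genes used as markers, none of them at 0, was 1143 CPM in the batch 2 empty vector library and 394 and 353 CPM in batches 3 and 4, and 980, 570 and 435 CPM under the label. That sum was mostly the collagens sqt-3, col-19 and dpy-13, at 414, 342 and 159 CPM in the batch 2 empty vector library. The transcription factor gene lin-26 went the other way, with 126, 165 and 162 CPM with the empty vector and 115, 164 and 167 CPM under the label, and nhr-23 was likewise lowest in batch 2 in both groups. Their part in the levels of the epidermal peptides was not tested.

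**Figure D5:**
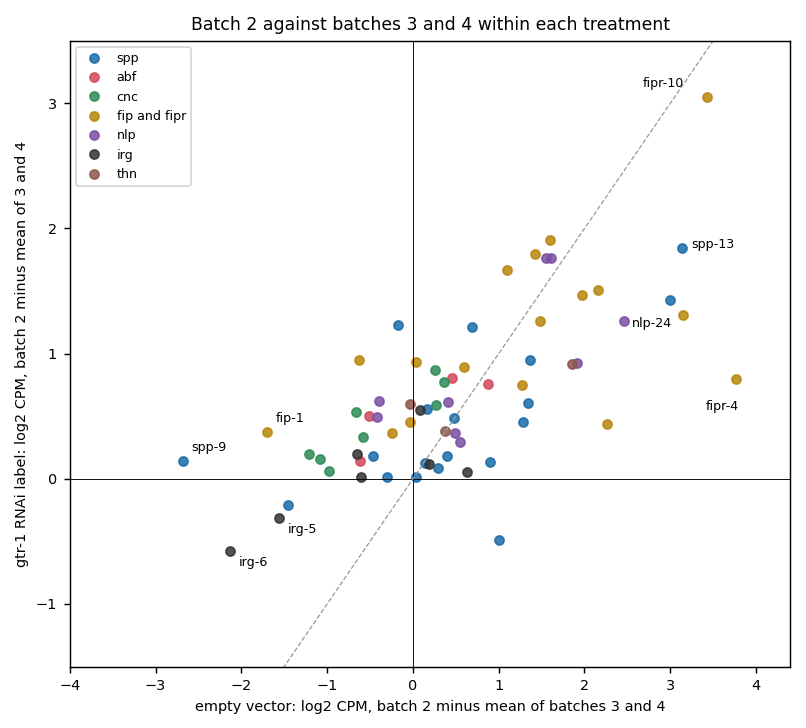
Log2 CPM of batch 2 minus the mean of batches 3 and 4 for each of the 67 tested members, with the empty vector on the horizontal axis and under the gtr-1 RNAi label on the vertical axis; the dashed line marks equal values. Most fip and fipr genes lie to the upper right, higher in batch 2 in both groups, while spp-9, fip-1, irg-5 and irg-6 were low in the batch 2 empty vector library.

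The batch 2 pair also shaped the differences between the groups. Among the 12 members whose groups did not overlap and that were higher under the label, the largest difference was that of batch 2 in 10, against 41.1% of all 453 such genes. Among the 5 that were lower, the difference of batch 2 was the smallest in all 5, against 36.7% of all 477 such genes. These counts were made after the pattern was seen and were not tested. The empty vector library of batch 2 was the lowest of the controls for 9 of the 12 (irg-4, irg-7, spp-14, cnc-2, cnc-4, nlp-29, nlp-34, fip-5 and fip-1) and for 4 of the 5, abf-2, spp-9, spp-12 and fipr-22. The same count was not made over all genes, so it has no background to be set against. fip-1 is among the 12 although it passed the filter on low counts only through the labelled group.

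None of the regulators of these effectors that were examined passed a test over all genes. Of 16 genes of intestinal immune signalling and its transcription factors, none passed edgeR or DESeq2 over all genes. Their median log2 fold change was 0.06. Before adjustment, at p under 0.05, 4 were higher and 1 lower, against 4.99% and 5.68% of all genes tested. Among those with the smallest p, tir-1, the adaptor at the head of the p38 pathway, was at 0.17 ± 0.05, the transcription factor pqm-1 at 0.23 ± 0.05 and the beta-catenin bar-1 at -0.31 ± 0.09 (log2 fold change ± SE, edgeR adjusted p = 0.317, 0.253 and 0.375). Of 11 genes of the epidermal response to fungi and wounds, none was past an unadjusted p of 0.05 in edgeR and none passed DESeq2, with a median of 0.04. The receptor dcar-1, which triggers nlp-29 after damage, was at 0.17 ± 0.10 (SE, edgeR adjusted p = 0.596). Of 8 genes of the DBL-1 pathway, 7 lay below 0 and none passed edgeR or DESeq2 over all genes. sma-10, a membrane protein that promotes DBL-1 signalling, had the smallest p at -0.24 ± 0.07, and the ligand gene dbl-1 was at 0.17 ± 0.19 (log2 fold change ± SE, edgeR adjusted p = 0.393 and 0.756).

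Markers of the intestine were mostly above 0 in the fit, but not in batch 2. Of 9 intestine genes (elt-2, elt-7, ges-1, act-5, ifb-2, pept-1, pho-1, asp-1 and cpr-6), none at 0, 8 were above 0 with a median of 0.16. DESeq2 called 2 of the 9 higher, asp-1 and act-5, where it called 1.57% of all genes higher. The summed level of the 9 was 2305, 1693 and 1474 CPM with the empty vector and 2815, 2228 and 1936 CPM under the label. The largest part of that sum in every library was asp-1, an aspartyl protease gene. It read 1328, 743 and 753 CPM with the empty vector and 1735, 1277 and 1114 CPM under the label. The median of the 9 was -0.08, 0.32 and 0.16 in the pairs, with 5 below 0 in batch 2 and 8 above 0 in each of the others. The part of this in the levels of spp-3, spp-5, spp-14, irg-4 and irg-7 was not tested. All 7 body wall muscle markers lay below 0 in the fit with a median of -0.15, although 4 were above 0 in the batch 3 pair. All 8 germline and oocyte markers lay below 0 in the fit with a median of -0.03. By pair, all 8 of these were below 0 in batch 2, but 6 and 7 were above 0 in batches 3 and 4. The 9 epidermis markers had a median of 0.20, but -0.18, 0.53 and 0.09 in the pairs of batches 2, 3 and 4. The 7 sperm markers had a median of -0.68, but 0.20, -0.81 and -1.88 in the pairs. All 7 were above 0 in batch 2 and below 0 in batch 4. The 7 neuron markers had a median of -0.02 (0.003, 0.23 and -0.18 in the pairs). For the 3 coelomocyte markers it was 0.17 (0.07, 0.07 and 0.27 in the pairs).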

How the data were processed

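Polyadenylated RNA of 6 libraries was sequenced from stranded libraries, per the labels' protocols. The authors deposited raw read counts per gene, made on the build WBcel235. The tools listed, with no settings, were HTSeq 2.01, TopHat2 2.1.1 and cutadapt 2.10, with DESeq2 1.36.0, per the submitters' processing notes. The authors also deposited a size-factor normalised signal per gene and a batch-corrected version of it, neither of which was used in a test. Of 46934 rows, 22416 held counts.

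Counts were fitted with edgeR 4.0.16 (limma 3.58.1, R 4.3.3) by the quasi-likelihood test, with genes kept by filterByExpr at a minimum count of 10, TMM scaling and batch as a block, and Benjamini-Hochberg adjustment over 15519 genes. SE was the absolute log2 fold change divided by the square root of F. Residual degrees of freedom were 2, and 3.16 were added by moderation. Pair differences are log2 CPM with a prior count of 2. Exon lengths and coordinates came from Ensembl release 115. DESeq2 1.42.0 (Wald test) was an alternative, as were other filters, scalings and left-out libraries. The scripts were tested on simulated data. Intervals of 0 counts cover counting error only.

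Batch numbers come from the labels, which pair the libraries. Deviations from the group means correlated at 0.71, 0.47 and 0.66 within batches 2, 3 and 4, and at -0.71 to 0.52 between batches. The members and lists were chosen with earlier results of these data known. Named genes were those called by edgeR or DESeq2, in each family the 5 with the smallest edgeR p and the 3 with the highest level per length, the 5 largest fold changes among members whose groups did not overlap, gtr-1, and up to 3 regulators per list with the smallest p. Besides these, 9 tested members were named after their values were seen, for their position, level or batch pattern (spp-1, spp-2, spp-4, spp-15, nlp-24, fipr-2, cnc-3, irg-1 and irg-6), beside untested members and lists of members called under an alternative.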

Additional observations from a re-analysis of the deposited data

How the results depend on the processing

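Without the replicate block, 0 members were called either way by edgeR, 9 were higher and 4 lower before adjustment (17 and 8 with it), and the median log2 fold change of the members was 0.0697 (0.14 with it). The median turned negative for fip and fipr (-0.12) and irg (-0.11), and cnc-3 (-0.0211), nlp-24 (-0.11) and irg-6 (-0.11) turned negative too. Members called higher, 0 in the main fit, numbered 4 with no filter and 4 with DESeq2 size factors, beside 0.582% and 0.851% of all genes. They numbered 7 with the DESeq2 Wald test, beside 1.57% of all genes, and 2 at an edgeR adjusted p under 0.1. Members called lower, also 0, numbered 1 with DESeq2 size factors and 2 with the DESeq2 Wald test, beside 0.445% and 0.619% of all genes. A minimum count of 50 left 3 lower at an unadjusted p under 0.05 and a median of 0.19, and moved the abf median from -0.07 to 0.24, that of fip and fipr from 0.12 to -0.14 and that of irg from 0.05 to -0.09. With no filter the abf median was 0.22. The share of all genes was not counted at an adjusted p under 0.1, nor at an unadjusted p under 0.05 outside the main fit. The causes were not tested.

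Leaving out a batch pair or a library gave 0 to 13 members called higher and 0 to 7 called lower. In the same fits 0 to 1165 of all genes were called, both directions together. Members lower at an unadjusted p under 0.05 numbered 3 to 12, and the median of the members ran from 0.12 to 0.21. The fip and fipr median ran from -0.24 to 0.35, the abf median from -0.26 to 0.14 and the irg median from -0.14 to 0.20, while those of spp, cnc and nlp stayed above 0 and that of thn below 0. Sign changed for cnc-10 (-0.00315 to 0.26), cnc-8 (-0.0697 to 0.30), cnc-3 (-0.31 to 0.26), nlp-24 (-0.0811 to 0.65), nlp-27 (-0.10 to 0.0352), spp-4 (-0.11 to 0.22) and irg-6 (-0.40 to 0.43). Where a single library was left out, the lone library of that batch adds nothing to the comparison. Of 698 alternative values of 47 named genes, 598 kept direction and side of the threshold, 75 passed it newly and 25 in 7 genes changed sign.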
